A study of Arabidopsis thaliana with 18 samples.

Results

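The genes described here encode the small antenna proteins that sit next to the photosystems of Arabidopsis thaliana: the 5 minor LHCB genes LHCB4.1, LHCB4.2, LHCB4.3, LHCB5 and LHCB6 of photosystem II, and the 5 LHCA genes LHCA1, LHCA2, LHCA3, LHCA4 and LHCA6 of photosystem I. They were taken from the deposited table by their locus, and all 10 were found among its 27655 genes. Transcripts were measured by RNA-seq of total RNA from whole seedlings, 7 days old and raised in short days. The groups were h3.3kd at 27 °C and at 21 °C, elf7-3 at 27 °C and at 21 °C, and the wild type Col at 27 °C and at 21 °C, with 3 libraries each and 18 in all. The line h3.3kd, labelled h3.3kd-1, has reduced histone variant H3.3, and the labels do not say how it was made. The line elf7-3 is a mutant in ELF7, whose protein belongs to the Paf1 complex and travels with RNA polymerase II. Each mutant genotype is represented by 1 line. The series concerns H2A.Z and H3.3 in thermomorphogenesis, the change in plant growth form in moderate warmth.

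Light-harvesting proteins bind chlorophyll and carotenoids and pass excitation energy to the reaction centres. In photosystem II the minor proteins CP29 (encoded by the LHCB4 copies), CP26 (LHCB5) and CP24 (LHCB6) are monomers that lie between the core and the larger LHCII trimers, which are made from LHCB1, LHCB2 and LHCB3. In photosystem I the LHCA proteins form a crescent along one side of the core as the dimers LHCA1 with LHCA4 and LHCA2 with LHCA3, while LHCA6 occurs in small amounts and helps to attach photosystem I to the chloroplast NADH dehydrogenase-like (NDH) complex. All are made from nuclear genes, whose transcripts are known to respond to light and to the circadian clock.

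Levels are TPM, a relative abundance that the authors scaled for gene length and library total. The low values of the table imply about 6680000 to 10900000 gene-assigned reads per library, which is an estimate. On that estimate LHCB4.3, the member at the lowest level, rested on 40 to 318 reads per library and LHCB4.1 on 15609 to 25623. The labels were checked on the targeted genes. Of the 3 H3.3 genes at 27 °C, HTR8 averaged 17.4 ± 2.40 TPM in h3.3kd and 189.6 ± 6.53 TPM in Col, HTR4 54.2 ± 3.75 TPM in h3.3kd and 338 ± 8.32 TPM in Col, and HTR5 265 ± 6.28 TPM in h3.3kd and 447 ± 22.6 TPM in Col (SD, n = 3 each). ELF7 averaged 13.0 ± 0.486 TPM in elf7-3 and 40.7 ± 0.475 TPM in Col at 27 °C (SD, n = 3 each). Of the h3.3kd libraries at 27 °C, replicate 1 stood apart, with 3.66% of its TPM in chloroplast and mitochondrial genes against 0.128% to 0.343% in the other libraries. Among the elf7-3 libraries at 21 °C, replicate 1 had the highest level of LHCB4.1, LHCB4.2, LHCB5, LHCB6, LHCA2, LHCA3, LHCA4 and LHCA6. Green tissue markers, which were 4 Rubisco small subunit genes and Rubisco activase, summed to between 26689 and 47717 TPM per library. The labels do not give separate cultures for the replicates, so p-values reflect the variation among libraries alone, and this may be technical.

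On the TAIR10.1 assembly, LHCB4.1 (AT5G01530) lies at chr5:208866-210548 on the plus strand, with 2 coding exons. Of the other copies, LHCB4.2 (AT3G08940) lies at chr3:2717557-2718923 on the plus strand, with 2 coding exons, and LHCB4.3 (AT2G40100) lies at chr2:16745628-16747424 on the plus strand, with 2 coding exons. For CP26, LHCB5 (AT4G10340) lies at chr4:6408007-6409849 on the plus strand, with 6 coding exons. For CP24, LHCB6 (AT1G15820) lies at chr1:5446462-5447880 on the minus strand, with 2 coding exons. Of the photosystem I genes, LHCA1 (AT3G54890) lies at chr3:20339504-20341176 on the minus strand, with 4 coding exons, and LHCA4 (AT3G47470) lies at chr3:17493343-17495033 on the minus strand, with 4 coding exons. The partner genes follow: LHCA2 (AT3G61470) lies at chr3:22745514-22747444 on the plus strand, with 4 coding exons, and LHCA3 (AT1G61520) lies at chr1:22699715-22701412 on the plus strand, with 3 coding exons. Lastly, LHCA6 (AT1G19150) lies at chr1:6612630-6613972 on the plus strand, with 3 coding exons. Coding sequences of LHCB4.1 and LHCB4.2 were identical at 81.9% of aligned bases, those of LHCB4.2 and LHCB4.3 at 73.0% and those of LHCB4.1 and LHCB4.3 at 71.8%. Stretches of 50 bases were searched within single exons and not across splice junctions. None from any LHCB4 copy occurred elsewhere in the genome, so reads that match 50 or more bases of 1 exon without errors belong to 1 copy. Only LHCA2 had such shared stretches, 138 of its 1212, with AT5G28450, which was at 0 to 0.366 TPM in group means. The strand setting of the counting is not stated, and 20.4% of the exonic bases of LHCB6 are overlapped by genes on the opposite strand, of which AT1G15810 averaged 31.7 to 40.3 TPM over the groups. The overlap was 3.22% for LHCB4.2 and 4.09% for LHCA4.

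The 250 bases upstream of the annotated starts of the LHCB4 copies are shown because these copies encode forms of CP29 and differed most in their levels. They are RefSeq sequence from TAIR10.1, written 5′ to 3′ on the strand of the gene, and each lies directly before its gene start, at chr5:208616-208865 for LHCB4.1, chr3:2717307-2717556 for LHCB4.2 and chr2:16745378-16745627 for LHCB4.3. Capitals mark a match to 1 of 5 motifs searched on both strands: the G-box CACGTG, the I-box GATAAG, the CCA1 site AANAATCT, the evening element AAAATATCT and the heat shock element GAANNTTC.
LHCB4.1: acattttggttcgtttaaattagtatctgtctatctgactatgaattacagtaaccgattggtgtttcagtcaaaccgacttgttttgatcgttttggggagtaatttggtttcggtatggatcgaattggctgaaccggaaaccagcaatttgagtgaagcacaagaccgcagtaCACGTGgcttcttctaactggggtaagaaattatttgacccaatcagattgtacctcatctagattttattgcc
LHCB4.2: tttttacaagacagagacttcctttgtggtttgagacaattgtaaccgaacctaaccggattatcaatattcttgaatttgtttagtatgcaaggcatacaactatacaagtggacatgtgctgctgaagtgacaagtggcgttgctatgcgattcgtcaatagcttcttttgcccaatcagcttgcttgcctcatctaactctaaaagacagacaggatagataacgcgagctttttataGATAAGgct
LHCB4.3: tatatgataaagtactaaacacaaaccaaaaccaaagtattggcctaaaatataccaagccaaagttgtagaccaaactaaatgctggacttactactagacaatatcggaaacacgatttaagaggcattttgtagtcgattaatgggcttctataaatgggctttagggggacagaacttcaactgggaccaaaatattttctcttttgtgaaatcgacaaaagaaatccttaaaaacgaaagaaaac
LHCB4.1 held a G-box, LHCB4.2 an I-box close to its start, and LHCB4.3 none of the 5 motifs in this window. Over the 10 members the G-box was found in 3 (LHCB4.1, LHCB6 and LHCA4), against 6.49% of the 27443 upstream windows of the genome, and the I-box in 3 (LHCB4.2, LHCB6 and LHCA1), against 12.3%. The CCA1 site was found in 2 (LHCB5 and LHCA4), against 13.4%, the heat shock element in 1 (LHCB5), against 9.55%, and the evening element in 0, against 2.36%. These are matches of letters only.

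LHCB4.1 was the most abundant member, with a mean over groups of 2861 TPM, and LHCB4.3 the least abundant at 11.38 TPM. LHCB5, LHCA2, LHCA3, LHCA1 and LHCA4 lay between 1166 and 1960 TPM, LHCB6 and LHCB4.2 at 735 and 501 TPM, and LHCA6 at 125 TPM. The highest group mean was 5.96 times the lowest for LHCB4.2, 5.61 times for LHCB4.3, 3.32 times for LHCB6 and 1.17 times for LHCB4.1. So abundant and variable members were found within the same small family of CP29 copies. The plot of levels by library shows all 180 values.

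**Figure D1:**
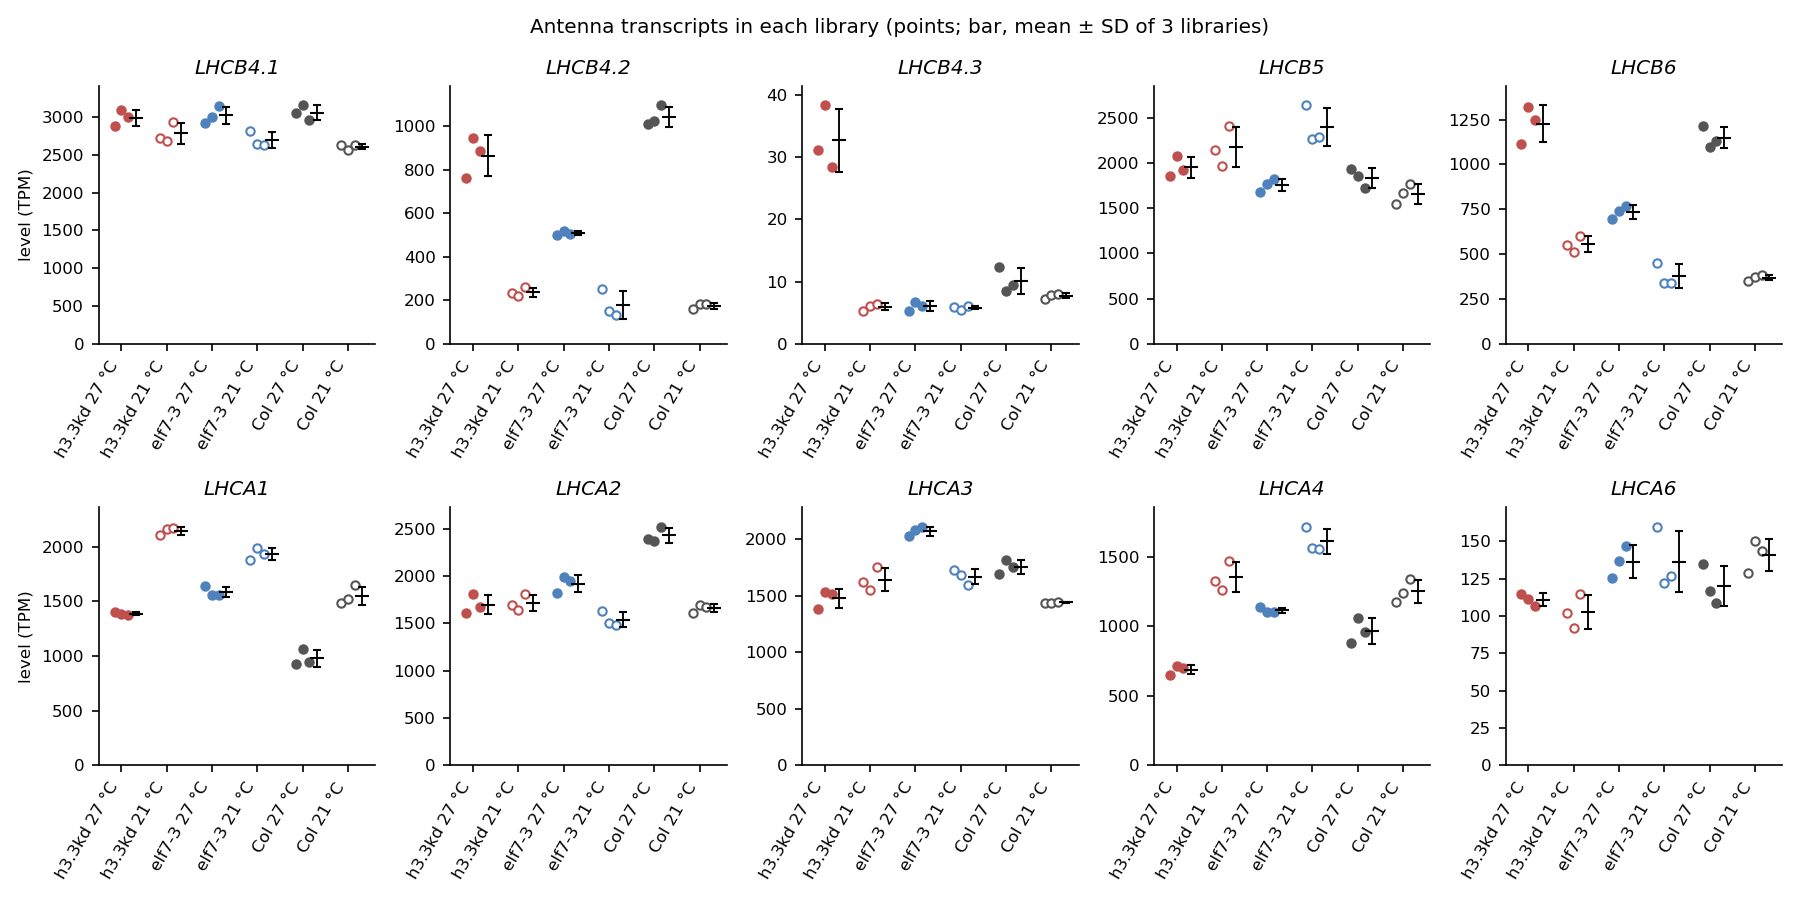
Level in TPM (vertical axes, from 0, one scale per gene) of each of the 10 members in each library, by genotype and temperature (filled points 27 °C, open points 21 °C), with the mean and SD of 3 libraries as a bar. LHCB4.2 and LHCB6 are high at 27 °C in each genotype, LHCB4.3 stands out in h3.3kd at 27 °C, where its 3 libraries lie between 28.5 and 38.4 TPM, and LHCA1 and LHCA4 are lower at 27 °C than at 21 °C in each genotype.

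LHCB4.2, a CP29 copy, rose in warmth in each genotype. In h3.3kd it had 763, 947 and 885 TPM at 27 °C, against 232, 219 and 260.5 TPM at 21 °C. In elf7-3 it had 502, 520.0 and 505 TPM at 27 °C and 252, 149.7 and 133 TPM at 21 °C, and in Col 1009, 1024 and 1097 TPM at 27 °C and 160.1, 183 and 182 TPM at 21 °C. Within each genotype every warm library was above every cool one, and at 27 °C the 3 genotypes did not overlap, with Col highest and elf7-3 lowest. In the limma fit on log2(TPM + 1), whose log2 fold changes are given with their SE and with p-values adjusted by Benjamini-Hochberg over 20048 genes, the response to warmth was 1.86 ± 0.153 in h3.3kd (adjusted p = 3.19e-08), 1.56 ± 0.153 in elf7-3 (adjusted p = 2.45e-07) and 2.57 ± 0.153 in Col (adjusted p = 4.51e-10). The response was smaller than in Col, with a difference of log2 fold changes of -1.01 ± 0.216 in elf7-3 (adjusted p = 0.00850) and -0.71 ± 0.216 in h3.3kd (adjusted p = 0.0291), and the difference between the responses of the mutants, 0.29 ± 0.216 for h3.3kd minus elf7-3, was not called (adjusted p = 0.424). At 27 °C elf7-3 was below Col by a log2 fold change of -1.03 ± 0.153 (adjusted p = 5.77e-05), and h3.3kd differed from Col by -0.28 ± 0.153, which was not called (adjusted p = 0.142). Against Col at 21 °C h3.3kd was higher by 0.44 ± 0.153 (adjusted p = 0.0352), a call lost in 6 of 14 alternatives. The call of the smaller response of h3.3kd was lost without Col replicate 1 at 21 °C, Col replicate 3 at 27 °C, h3.3kd replicate 3 at 21 °C or h3.3kd replicate 1 at 27 °C (adjusted p from 0.0649 to 0.0682), where the difference was -0.68 to -0.62, and over 20 alternatives it stayed between -0.78 and -0.62. At 21 °C elf7-3 was not called against Col (-0.03 ± 0.153, adjusted p = 0.920), but without elf7-3 replicate 1, whose level was highest, it was lower by a log2 fold change of -0.30 (adjusted p = 0.0188). Without that library the response to warmth in elf7-3 was 1.84 (adjusted p = 2.36e-10), its difference from the response of Col was -0.73 (adjusted p = 0.00183), and the response of h3.3kd minus that of elf7-3 was 0.02 (adjusted p = 0.952).

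LHCB4.3, the third CP29 copy, which is also named LHCB8, was high in a single group. It had 31.2, 38.4 and 28.5 TPM in h3.3kd at 27 °C, against 5.32, 6.06 and 6.41 TPM in h3.3kd at 21 °C. In elf7-3 it had 5.22, 6.75 and 6.14 TPM at 27 °C and 5.98, 5.49 and 6.01 TPM at 21 °C, and in Col 12.4, 8.45 and 9.44 TPM at 27 °C and 7.26, 7.86 and 8.07 TPM at 21 °C. The 3 warm h3.3kd libraries lay between 28.5 and 38.4 TPM and the other 15 between 5.22 and 12.4 TPM. By limma the rise in warmth was 2.27 ± 0.131 in h3.3kd (adjusted p = 4.20e-10), and this exceeded the response of Col by 1.94 ± 0.185 (adjusted p = 2.68e-06) and that of elf7-3 by 2.24 ± 0.185 (adjusted p = 4.00e-07). In elf7-3 the response of 0.04 ± 0.131 was not called (adjusted p = 0.832). The difference of that response from the response of Col, -0.29 ± 0.185, was not called either (adjusted p = 0.375). The small rise in Col, 0.33 ± 0.131 (adjusted p = 0.0397), lost its call in 10 of 14 alternatives and was 0.19 without Col replicate 1 at 27 °C (adjusted p = 0.236). At 27 °C LHCB4.3 was higher in h3.3kd than in Col by 1.61 ± 0.131 (adjusted p = 2.01e-08) and lower in elf7-3 than in Col by a log2 fold change of -0.65 ± 0.131 (adjusted p = 9.57e-04). Neither mutant was called against Col at 21 °C, with -0.34 ± 0.131 in h3.3kd (adjusted p = 0.0564) and -0.35 ± 0.131 in elf7-3 (adjusted p = 0.0505). These were called in 3 of 14 alternatives for h3.3kd and 5 of 14 for elf7-3. The organelle-rich library, replicate 1 of h3.3kd at 27 °C, was the middle of its group, and over 14 alternatives, its removal among them, the log2 fold change of h3.3kd against Col at 27 °C stayed between 1.49 and 1.75.

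LHCB4.1, the copy that supplied most CP29 transcript, had the smallest ratio of its highest to its lowest group mean, 1.17, of the 10 members. In h3.3kd it averaged 2992 ± 105 TPM at 27 °C and 2785 ± 136 TPM at 21 °C, in elf7-3 3024 ± 111 TPM at 27 °C and 2698 ± 102 TPM at 21 °C, and in Col 3058 ± 97.0 TPM at 27 °C and 2611 ± 34.6 TPM at 21 °C (SD, n = 3 each). The limma response to warmth was 0.10 ± 0.0581 in h3.3kd (adjusted p = 0.156, not called), 0.16 ± 0.0581 in elf7-3 (adjusted p = 0.0263) and 0.23 ± 0.0581 in Col (adjusted p = 0.00291), and both calls were lost under median-of-ratios scaling. Over 14 alternatives, that scaling among them, the call was lost in 6 in elf7-3 and in 1 in Col. In none of the 6 comparisons between genotypes at 1 temperature was LHCB4.1 called, nor in the 3 comparisons of responses. LHCB4.2 as a percentage of LHCB4.1, a ratio that does not depend on the scaling of a library, was 28.9 ± 2.16 in h3.3kd at 27 °C and 8.51 ± 0.351 at 21 °C, 16.8 ± 0.681 in elf7-3 at 27 °C and 6.56 ± 2.101 at 21 °C, and 34.2 ± 2.48 in Col at 27 °C and 6.70 ± 0.548 at 21 °C (SD, n = 3 each). The log2 of that ratio separated the groups without overlap in 7 of 9 pairs of groups, the exceptions being elf7-3 against Col and h3.3kd against elf7-3 at 21 °C, with an exact two-sided permutation p of 0.1 in each of the 7, the smallest that 3 against 3 libraries allow. In both exceptions the overlap came with replicate 1 of elf7-3 at 21 °C, since the ratio was 8.16% to 8.86% in the h3.3kd libraries, 8.96%, 5.66% and 5.06% in those of elf7-3 and 6.08% to 7.12% in those of Col. LHCB4.3 made up at most 0.941% of the transcript of the 3 copies in any library.

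LHCB6, which encodes CP24, rose in warmth in each genotype, as LHCB4.2 did. It had 1114, 1319.6 and 1246 TPM in h3.3kd at 27 °C, against 552, 511 and 600.0 TPM at 21 °C. It had 693, 741 and 769 TPM in elf7-3 at 27 °C and 453, 339.7 and 338 TPM at 21 °C, and 1214, 1098 and 1132 TPM in Col at 27 °C and 352, 372 and 383 TPM at 21 °C. Warm and cool libraries were separate in each genotype, and the warm elf7-3 libraries lay below the warm libraries of h3.3kd and Col, which overlapped. The limma response was 1.14 ± 0.0945 in h3.3kd (adjusted p = 3.30e-08), 0.97 ± 0.0945 in elf7-3 (adjusted p = 2.26e-07) and 1.63 ± 0.0945 in Col (adjusted p = 3.30e-10). It was smaller than in Col, with a difference of -0.49 ± 0.134 in h3.3kd (adjusted p = 0.0164) and -0.66 ± 0.134 in elf7-3 (adjusted p = 0.00566). At the single temperatures h3.3kd was above Col at 21 °C (0.58 ± 0.0945, adjusted p = 1.37e-04) and not called at 27 °C (0.09 ± 0.0945, adjusted p = 0.432), whereas elf7-3 was not called at 21 °C (0.02 ± 0.0945, adjusted p = 0.916) and below Col at 27 °C (-0.64 ± 0.0945, adjusted p = 5.28e-05).

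LHCB5, which encodes CP26, was higher in both mutants than in Col at 21 °C, and at 27 °C neither mutant was called against Col. At 21 °C it averaged 2173 ± 222 TPM in h3.3kd, 2396 ± 210.2 TPM in elf7-3 and 1657 ± 109 TPM in Col, and at 27 °C 1948 ± 114 TPM in h3.3kd, 1754 ± 67.7 TPM in elf7-3 and 1834 ± 107 TPM in Col (SD, n = 3 each). By limma the difference from Col at 21 °C was 0.39 ± 0.0812 for h3.3kd (adjusted p = 0.00131) and 0.53 ± 0.0812 for elf7-3 (adjusted p = 1.17e-04), and at 27 °C 0.09 ± 0.0812 for h3.3kd (adjusted p = 0.387) and -0.06 ± 0.0812 for elf7-3 (adjusted p = 0.582). Warmth lowered LHCB5 in elf7-3 (-0.45 ± 0.0812, adjusted p = 2.00e-04), and the response of Col, 0.15 ± 0.0812, was not called (adjusted p = 0.136), nor was that of h3.3kd, -0.15 ± 0.0812 (adjusted p = 0.132). The response of elf7-3 was more negative than that of Col (-0.59 ± 0.115, adjusted p = 0.00426), and for h3.3kd the difference of -0.30 ± 0.115 was not called (adjusted p = 0.0776).

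**Figure D2:**
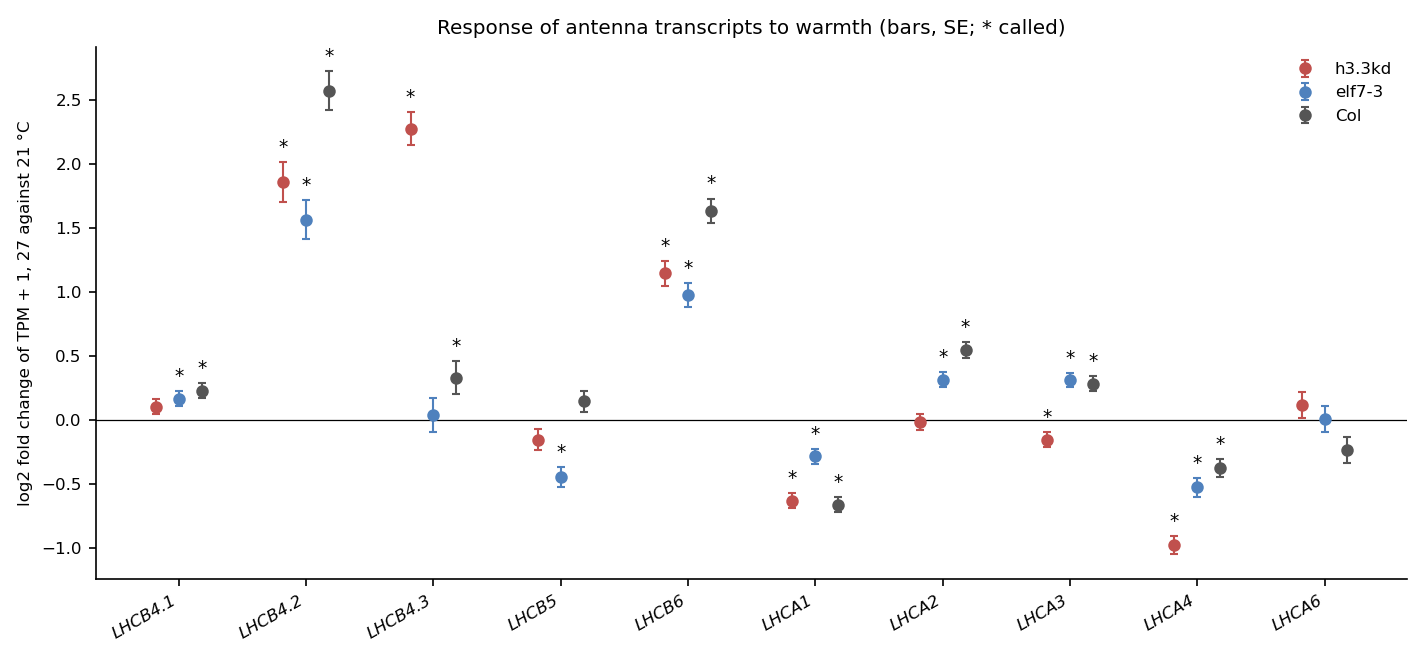
Log2 fold change of TPM + 1 at 27 °C against 21 °C (vertical axis) for each member in h3.3kd, elf7-3 and Col, with SE from the limma fit as bars and asterisks at an adjusted p under 0.05. LHCB4.2 and LHCB6 respond positively and LHCA1 and LHCA4 negatively in each genotype, while the LHCB4.3 response is 2.27 in h3.3kd, 0.04 in elf7-3 and 0.33 in Col.

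LHCA1 and LHCA4, which encode the partners of one photosystem I dimer, fell in warmth in each genotype. LHCA1 had 1398, 1386 and 1373 TPM in h3.3kd at 27 °C and 2106, 2162 and 2173 TPM at 21 °C. In elf7-3 it had 1641, 1561 and 1557 TPM at 27 °C and 1878, 1985 and 1934 TPM at 21 °C, and in Col 924, 1067 and 946 TPM at 27 °C and 1486, 1517 and 1646 TPM at 21 °C. Both mutants were above Col at each temperature with no overlap. By limma the log2 fold change of LHCA1 in warmth was -0.63 ± 0.0580 in h3.3kd (adjusted p = 1.22e-07), -0.28 ± 0.0580 in elf7-3 (adjusted p = 5.71e-04) and -0.66 ± 0.0580 in Col (adjusted p = 4.02e-08). The fall in elf7-3 was smaller than that in Col, a difference of 0.38 ± 0.0821 (adjusted p = 0.00898), and the difference of h3.3kd from Col, 0.03 ± 0.0821, was not called (adjusted p = 0.831). Against Col at 27 °C LHCA1 was higher by 0.50 ± 0.0580 in h3.3kd (adjusted p = 1.35e-06) and by 0.70 ± 0.0580 in elf7-3 (adjusted p = 1.31e-07), and at 21 °C by 0.47 ± 0.0580 in h3.3kd (adjusted p = 7.87e-06) and by 0.32 ± 0.0580 in elf7-3 (adjusted p = 5.31e-04). Of the 10 members LHCA1 was the only one called above Col in both mutants at both temperatures.

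LHCA4 had 649.8, 715 and 698 TPM in h3.3kd at 27 °C, the lowest of any group, and 1330.2, 1266 and 1474 TPM in h3.3kd at 21 °C. It had 1139, 1106 and 1107 TPM in elf7-3 at 27 °C and 1719, 1563 and 1557 TPM at 21 °C, and 881, 1062 and 958 TPM in Col at 27 °C and 1179, 1238 and 1342 TPM at 21 °C. Each warm group lay below its cool group, and the warm h3.3kd libraries below all others. By limma the log2 fold change in warmth was -0.98 ± 0.0733 in h3.3kd (adjusted p = 1.05e-08), -0.53 ± 0.0733 in elf7-3 (adjusted p = 1.27e-05) and -0.38 ± 0.0733 in Col (adjusted p = 2.96e-04). The response of h3.3kd was more negative than that of Col, with a difference of -0.60 ± 0.104 (adjusted p = 7.27e-04), and than that of elf7-3, with a difference of -0.45 ± 0.104 (adjusted p = 0.00868). At 27 °C LHCA4 was lower in h3.3kd than in Col (-0.49 ± 0.0733, adjusted p = 2.55e-05). In elf7-3 it was higher than in Col at 21 °C (0.36 ± 0.0733, adjusted p = 0.00124), and its call at 27 °C (0.21 ± 0.0733, adjusted p = 0.0320) was lost when only these groups were fitted and when Col replicate 1 or 3 or any elf7-3 library at 27 °C was left out.

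LHCA2 and LHCA3 encode the partners of the other dimer. LHCA2 had 1605, 1804 and 1676 TPM in h3.3kd at 27 °C and 1693, 1641 and 1806 TPM at 21 °C, which overlapped. It had 1816, 1989.6 and 1943 TPM in elf7-3 at 27 °C and 1629, 1507 and 1485 TPM at 21 °C, and 2394, 2369 and 2522 TPM in Col at 27 °C and 1613, 1694 and 1675 TPM at 21 °C. Warm libraries were above cool ones without overlap in elf7-3 and in Col. The limma response was -0.02 ± 0.0609 in h3.3kd (adjusted p = 0.855, not called), 0.32 ± 0.0609 in elf7-3 (adjusted p = 3.54e-04) and 0.55 ± 0.0609 in Col (adjusted p = 7.03e-07). The response of h3.3kd was below that of Col, with a difference of -0.56 ± 0.0861 (adjusted p = 2.67e-04), while elf7-3 minus Col was -0.23 ± 0.0861 and not called (adjusted p = 0.113). At 27 °C LHCA2 was lower than in Col in h3.3kd (-0.52 ± 0.0609, adjusted p = 1.68e-06) and in elf7-3 (-0.34 ± 0.0609, adjusted p = 3.21e-04), and at 21 °C neither mutant was called.

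LHCA3 averaged 1477 ± 84.0 TPM in h3.3kd at 27 °C and 1643 ± 101 TPM at 21 °C, 2072 ± 39.5 TPM in elf7-3 at 27 °C and 1670.1 ± 65.0 TPM at 21 °C, and 1754 ± 63.2 TPM in Col at 27 °C and 1442 ± 5.43 TPM at 21 °C (SD, n = 3 each). Warmth raised it by 0.31 ± 0.0576 in elf7-3 (limma, adjusted p = 2.34e-04) and by 0.28 ± 0.0576 in Col (adjusted p = 4.51e-04). In h3.3kd it was lower in warmth by a log2 fold change of -0.15 ± 0.0576 (adjusted p = 0.0372), a call lost in 6 of 14 alternatives, among them the removal of organelle genes and leaving out replicate 1 at 27 °C. The response of h3.3kd was nevertheless below that of Col (-0.44 ± 0.0815, adjusted p = 0.00138) and that of elf7-3 (-0.47 ± 0.0815, adjusted p = 0.00105) in each of 20 alternatives. Against Col at 27 °C LHCA3 was lower in h3.3kd (-0.25 ± 0.0576, adjusted p = 0.00153, or -0.15 with adjusted p = 0.0466 under median-of-ratios scaling) and higher in elf7-3 (0.24 ± 0.0576, adjusted p = 0.00353).

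The sum of LHCA1 and LHCA4 as a percentage of the sum of LHCA2 and LHCA3 was 65.5 ± 2.85 in h3.3kd at 27 °C and 104 ± 2.49 at 21 °C. It was 67.9 ± 3.85 in elf7-3 at 27 °C and 111 ± 3.03 at 21 °C, and 46.5 ± 3.75 in Col at 27 °C and 90.3 ± 4.67 at 21 °C (SD, n = 3 each). The warm groups of all genotypes lay below all cool groups, and within each temperature both mutants lay above Col. This ratio was chosen after the levels were known and was not tested. The plot of ratios within each library shows it beside that of the CP29 copies.

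**Figure D3:**
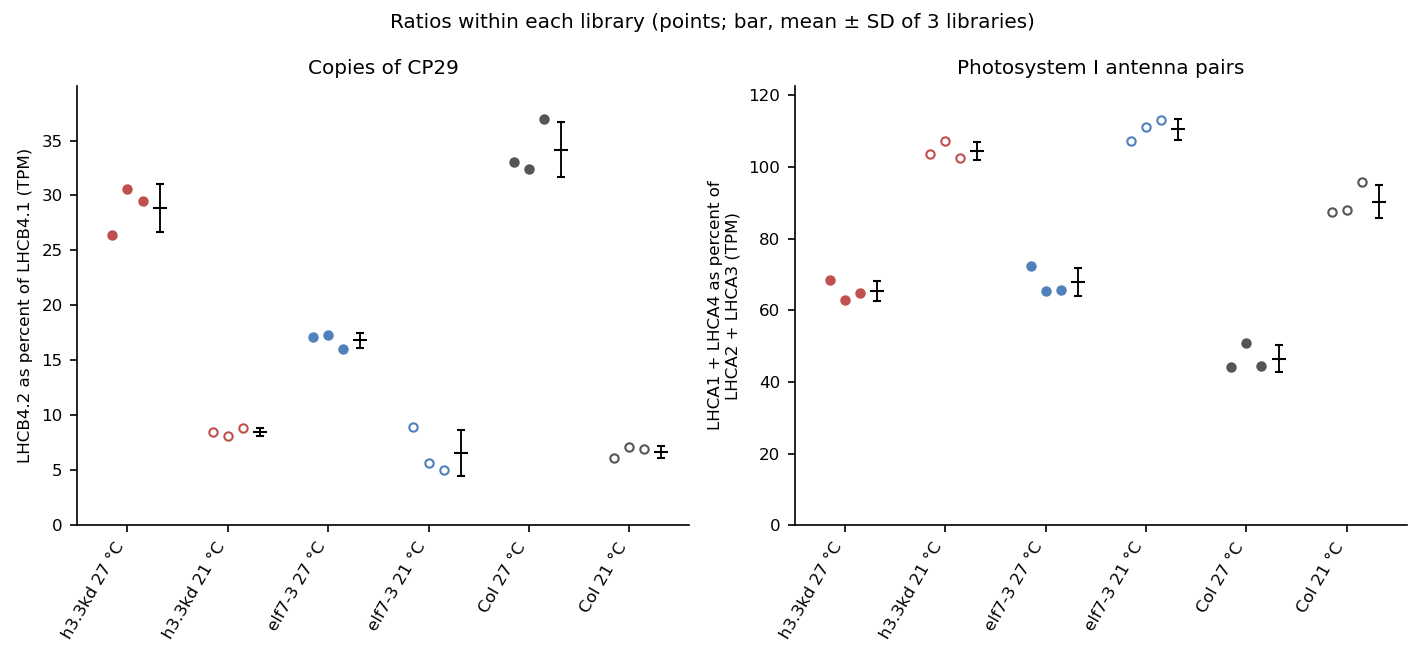
LHCB4.2 as a percentage of LHCB4.1 (left) and LHCA1 plus LHCA4 as a percentage of LHCA2 plus LHCA3 (right), both from TPM, in each library of the 6 groups (filled points 27 °C, open points 21 °C), with the mean and SD of 3 libraries as a bar. The left ratio runs from 5.06 to 37.0 and is high in warmth, and the right ratio runs from 44.2 to 113.2 and is low in warmth.

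LHCA6, the member that helps to join photosystem I to the NDH complex, was not called for a change with warmth in any genotype, with a log2 fold change by limma of 0.12 ± 0.102 in h3.3kd (adjusted p = 0.382), 0.01 ± 0.102 in elf7-3 (adjusted p = 0.951) and -0.23 ± 0.102 in Col (adjusted p = 0.0624), the last of which was called in 5 of 14 alternatives. It averaged 111 ± 4.19 TPM in h3.3kd at 27 °C and 103 ± 11.40 TPM at 21 °C, 136 ± 11.00 TPM in elf7-3 at 27 °C and 136 ± 20.6 TPM at 21 °C, and 120.1 ± 13.5 TPM in Col at 27 °C and 141 ± 10.9 TPM at 21 °C (SD, n = 3 each). At 21 °C h3.3kd was below Col by a log2 fold change of -0.46 ± 0.102 (limma, adjusted p = 0.00220), its one call against Col. Of the LHCA genes LHCA2 was the closest to LHCA6 in coding sequence, with 63.5% of aligned bases identical. LHCA6 as a percentage of LHCA2 was 6.56 ± 0.513 in h3.3kd, 7.12 ± 0.395 in elf7-3 and 4.96 ± 0.665 in Col at 27 °C, and 5.98 ± 0.376 in h3.3kd, 8.82 ± 0.890 in elf7-3 and 8.48 ± 0.444 in Col at 21 °C (SD, n = 3 each). The groups of the log2 ratio did not overlap in 6 of 9 comparisons, each with the exact two-sided permutation p of 0.1.

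Counted over the 10 members, the response to warmth was mixed in direction in each genotype. In h3.3kd 3 rose (LHCB4.2, LHCB4.3 and LHCB6) and 3 fell (LHCA1, LHCA3 and LHCA4), against 26.1% of all 20048 genes that rose and 19.7% that fell. In elf7-3 5 rose and 3 fell, against 29.8% and 18.3% of all genes. In Col 6 rose and 2 fell, against 32.9% and 22.1%. The median log2 fold change of the members was 0.04 in h3.3kd, 0.10 in elf7-3 and 0.26 in Col, beside 0.04, 0.07 and 0.08 over all genes tested in the same genotypes. With calls made on so many genes in these comparisons, the counts say less than the sizes for single members. Under median-of-ratios scaling 4 members rose and 3 fell in Col, 4 rose and 3 fell in elf7-3, and the share of rises among all called genes in elf7-3 was 50.6% in place of 62.0%.

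Against Col at 27 °C, h3.3kd had 2 members higher (LHCB4.3 and LHCA1) and 3 lower (LHCA2, LHCA3 and LHCA4), against 20.2% and 31.6% of all genes. At 21 °C it had 5 higher (LHCB4.2, LHCB5, LHCB6, LHCA1 and LHCA3) and 1 lower (LHCA6), against 12.7% and 20.8%. Of these, LHCB4.2 at 21 °C (0.44 ± 0.153, adjusted p = 0.0352 by limma) lost its call in 6 of 14 alternatives, and LHCA3 (0.19 ± 0.0576, adjusted p = 0.0185) without Col replicate 1 or h3.3kd replicate 3 at 21 °C. Among all called genes 39.0% were higher at 27 °C and 38.0% at 21 °C, and under median-of-ratios scaling 52.3% and 50.5%, with the member counts as above. Line elf7-3 had 3 members higher than Col at 27 °C (LHCA1, LHCA3 and LHCA4) and 4 lower (LHCB4.2, LHCB4.3, LHCB6 and LHCA2), against 16.4% and 18.5% of all genes. At 21 °C it had 4 higher (LHCB5, LHCA1, LHCA3 and LHCA4) and 0 lower, against 13.3% and 15.4%. Because both mutants were compared with the same Col libraries, their differences from Col are not independent of each other.

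**Figure D4:**
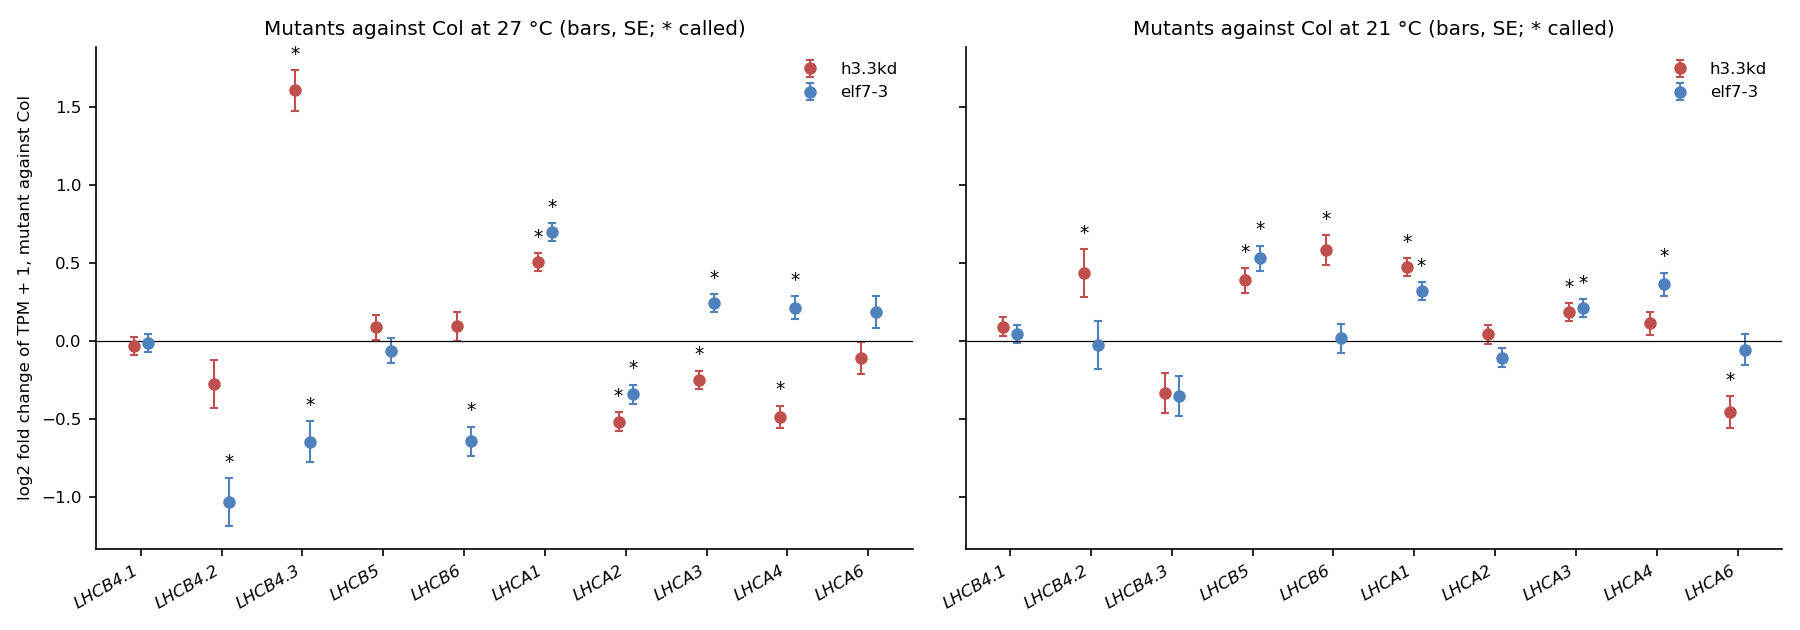
Log2 fold change of TPM + 1 of h3.3kd and elf7-3 against Col (vertical axis, shared) for each member at 27 °C (left) and 21 °C (right), with SE from the limma fit as bars and asterisks at an adjusted p under 0.05. At 27 °C LHCB4.3 lies at 1.61 in h3.3kd and -0.65 in elf7-3, and LHCA1 is above 0 in all 4 comparisons.

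Set directly against elf7-3 at 27 °C, h3.3kd had 3 members higher, all minor LHCB genes (LHCB4.2, LHCB4.3 and LHCB6), and all 5 LHCA genes lower, against 21.6% and 31.6% of all genes. The sizes ran from 2.25 for LHCB4.3, through 0.76 for LHCB4.2 and 0.74 for LHCB6, to -0.70 for LHCA4 and -0.49 for LHCA3. The calls of LHCA1 (-0.19), LHCA2 (-0.18) and LHCA6 (-0.29) were lost under median-of-ratios scaling, in which they kept a negative sign. Over 14 alternatives, that scaling among them, the call was lost in 1 for LHCA1, 6 for LHCA2 and 4 for LHCA6. At 21 °C 4 members were higher in h3.3kd (LHCB4.2, LHCB6, LHCA1 and LHCA2) and 2 lower (LHCA4 and LHCA6), against 19.3% and 25.9% of all genes, but that count of 6 was 3 when only these groups were fitted and 3 without elf7-3 replicate 3. For LHCB4.2 at 21 °C the log2 fold change was 0.46 ± 0.153 (limma, adjusted p = 0.0198), 0.74 without elf7-3 replicate 1 (adjusted p = 5.51e-06) and 0.28 without elf7-3 replicate 3 (adjusted p = 0.138).

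The warmth response of h3.3kd minus that of Col was more positive for 1 member (LHCB4.3) and more negative for 5 (LHCB4.2, LHCB6, LHCA2, LHCA3 and LHCA4), against 8.37% and 10% of all genes. That of elf7-3 minus Col was more positive for 1 (LHCA1) and more negative for 3 (LHCB4.2, LHCB5 and LHCB6), against 3.75% and 3.51%. For h3.3kd minus elf7-3 it was more positive for 1 (LHCB4.3) and more negative for 4, the dimer-forming LHCA1, LHCA2, LHCA3 and LHCA4, against 4.80% and 7.01%. The members with a more negative response in h3.3kd than in Col included the LHCA2 and LHCA3 pair, for which elf7-3 minus Col was -0.23 and 0.03 and not called.

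Summed over the 5 minor LHCB genes, levels were 7065 ± 415 TPM in h3.3kd at 27 °C and 5756 ± 421 TPM at 21 °C. The sums were 6027 ± 217 TPM in elf7-3 at 27 °C and 5654 ± 442 TPM at 21 °C, and 7093 ± 152 TPM in Col at 27 °C and 4819.7 ± 136 TPM at 21 °C (SD, n = 3 each). Warm libraries were above cool ones without overlap in h3.3kd and Col, each with an exact two-sided permutation p of 0.1, the smallest possible, and overlapped in elf7-3 (exact p = 0.3). The elf7-3 sums were 5806, 6036 and 6239 TPM at 27 °C, against 6164, 5403 and 5395 TPM at 21 °C, so that without replicate 1 at 21 °C the warm libraries did not overlap the cool ones and the difference of means was 628 TPM in place of 373 TPM. It was 247 TPM without replicate 2 and 243 TPM without replicate 3 at 21 °C. The 5 LHCA genes went another way, at 5357 ± 201 TPM in h3.3kd at 27 °C and 6963 ± 317 TPM at 21 °C. Their sums were 6829 ± 67.7 TPM in elf7-3 at 27 °C and 6892 ± 207 TPM at 21 °C, and 6249 ± 206 TPM in Col at 27 °C and 6046 ± 205 TPM at 21 °C (SD, n = 3 each). Warm LHCA sums were below cool ones without overlap in h3.3kd (exact permutation p = 0.1), and warm and cool sums overlapped in elf7-3 (exact p = 0.9) and in Col (exact p = 0.3). At 27 °C the LHCA sum was lowest in h3.3kd and highest in elf7-3, with Col between and no overlap, and at 21 °C both mutants were above Col in both sums. For each sum 6 of 9 comparisons did not overlap. In bulk RNA of whole seedlings, a lower level in green cells and a smaller share of green cells cannot be told apart.

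**Figure D5:**
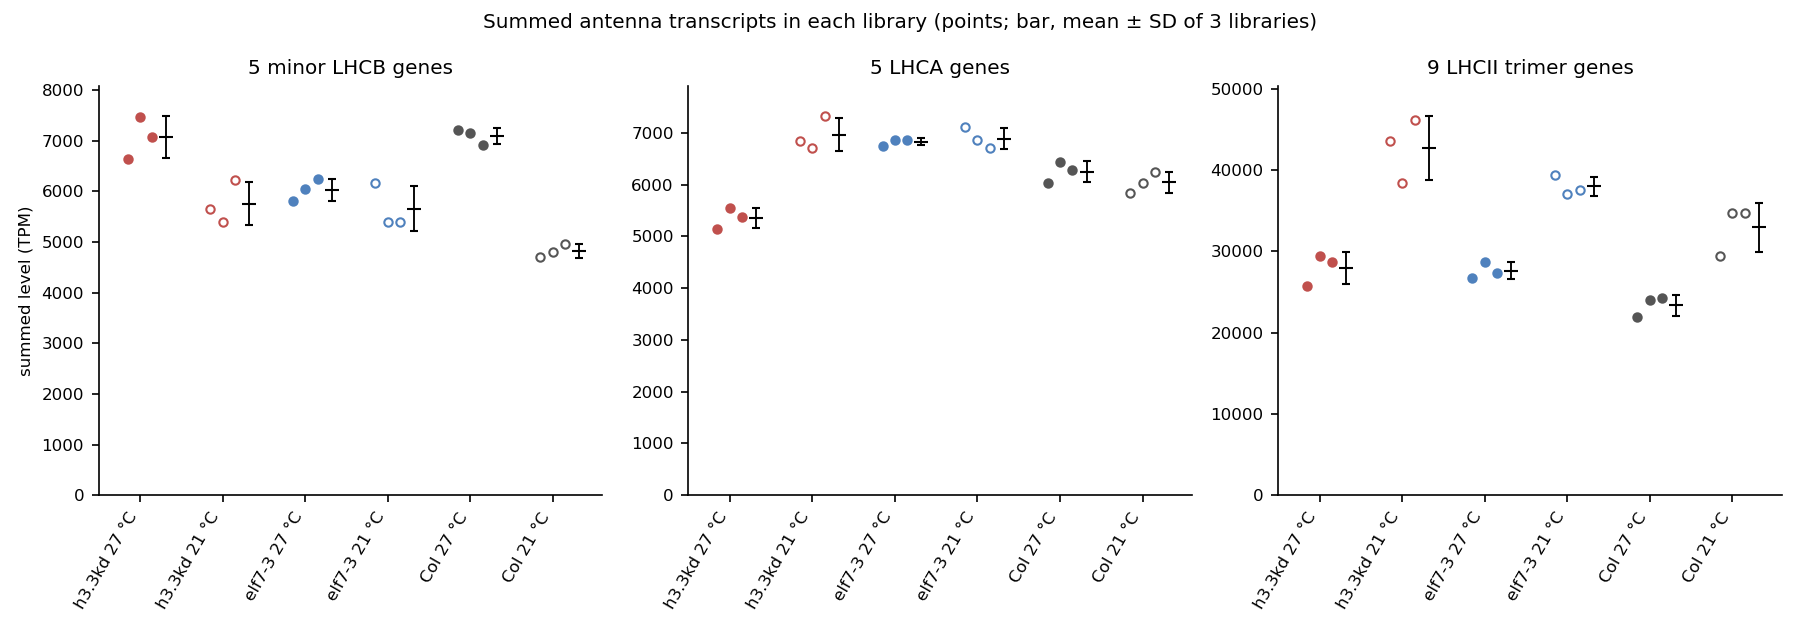
Summed TPM (vertical axes, from 0) of the 5 minor LHCB genes, the 5 LHCA genes and the 9 LHCII trimer genes in each library of the 6 groups (filled points 27 °C, open points 21 °C), with the mean and SD of 3 libraries as a bar. Warm sums exceed cool sums for minor LHCB genes in h3.3kd and Col, and the LHCII sums at 27 °C are below those at 21 °C in each genotype.

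Root and green tissue markers also moved between the groups, and their part in the antenna results was not tested. The 17 root markers summed to 191 to 240.4 TPM in h3.3kd at 27 °C and 172 to 183 TPM at 21 °C, 293 to 387 TPM in elf7-3 at 27 °C and 273 to 312 TPM at 21 °C, and 367 to 464 TPM in Col at 27 °C and 173 to 179.8 TPM at 21 °C. Of 14 tested, 10 were lower in h3.3kd than in Col at 27 °C and 0 higher, against 31.6% and 20.2% of all genes. In warm against cool Col 9 were higher and 0 lower, against 32.9% and 22.1%. In elf7-3 against Col at 21 °C 9 were higher and 0 lower, against 13.3% and 15.4%. For the same lines at 27 °C 1 was higher and 5 were lower, against 16.4% and 18.5%. In h3.3kd against elf7-3, 10 of the 14 were lower and 0 higher at 27 °C, against 31.6% and 21.6% of all genes. At 21 °C 12 were lower and 1 higher, against 25.9% and 19.3%. The root meristem gene WOX5 averaged 0.0501 to 1.52 TPM and the nitrate transporter gene NRT2.1 averaged 0 to 0.482 TPM over the groups. Green tissue markers summed to 44507 ± 2032 TPM in h3.3kd, 28257 ± 1358 TPM in elf7-3 and 35649 ± 2714 TPM in Col at 27 °C, and 45990.3 ± 2102 TPM in h3.3kd, 31782 ± 2415 TPM in elf7-3 and 39263 ± 2274 TPM in Col at 21 °C (SD, n = 3 each). Of these 5, 4 were higher in h3.3kd than in Col at 27 °C, against 20.2% of all genes. In that comparison LHCB4.3 and LHCA1 were higher and LHCA2, LHCA3 and LHCA4 lower. In h3.3kd against Col at 21 °C 2 green tissue markers were higher and 0 lower, against 12.7% and 20.8% of all genes. There LHCB4.2, LHCB5, LHCB6, LHCA1 and LHCA3 were higher and LHCA6 lower. In elf7-3 against Col at 21 °C 4 green tissue markers were lower, against 15.4% of all genes. In that comparison LHCB5, LHCA1, LHCA3 and LHCA4 were higher. At 27 °C 3 green tissue markers were lower in elf7-3 than in Col and 0 higher, against 18.5% and 16.4% of all genes. There LHCA1, LHCA3 and LHCA4 were higher and LHCB4.2, LHCB4.3, LHCB6 and LHCA2 lower. In h3.3kd against elf7-3 all 5 green tissue markers were higher at both temperatures, against 21.6% of all genes at 27 °C and 19.3% at 21 °C. At 27 °C LHCB4.2, LHCB4.3 and LHCB6 were higher and the 5 LHCA genes lower. Of the latter, LHCA1, LHCA2 and LHCA6 lost the call under median-of-ratios scaling, and over 14 alternatives LHCA2 lost it in 6 and LHCA6 in 4. At 21 °C LHCB4.2, LHCB6, LHCA1 and LHCA2 were higher and LHCA4 and LHCA6 lower.

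The genes around the members give the setting, and no list was tested as a set. Over all genes, 26.1% rose and 19.7% fell in warm h3.3kd. The shares were 29.8% and 18.3% in warm elf7-3, and 32.9% and 22.1% in warm Col. Of the 9 LHCII trimer genes, 2 rose and 6 fell in warmth in h3.3kd, 3 rose and 4 fell in elf7-3, and 3 rose and 6 fell in Col. LHCB2.1 and LHCB2.2 rose in each genotype, by 1.74 and 1.93 in h3.3kd, 1.265 and 1.070 in elf7-3 and 2.52 and 2.27 in Col on the log2 scale, though their group means were at most 57.6 TPM. Of 12 nuclear photosystem I subunit genes, 4 rose and 3 fell in h3.3kd, 3 rose and 5 fell in elf7-3, and 7 rose and 2 fell in Col. PSAD2, a subunit on the stromal side that helps to dock ferredoxin, changed most, by 1.90 in h3.3kd, 1.96 in elf7-3 and 2.296 in Col. At 27 °C 10 of the 12 were lower in elf7-3 than in Col and 0 higher, against 18.5% and 16.4% of all genes. In h3.3kd 5 were lower than in Col and 1 higher, against 31.6% and 20.2%. So in warm elf7-3 photosystem I core genes such as PSAD2 (-0.77) and PSAO (-0.57) were below Col, as was LHCA2 (-0.34). LHCA1, LHCA3 and LHCA4 were above Col, LHCA4 with a call lost in 6 of 14 alternatives, and LHCA6 was not called. Of 10 photosystem II subunit genes, 1 rose and 4 fell in warm h3.3kd, 2 rose and 5 fell in warm elf7-3, and 4 rose and 1 fell in warm Col, with PSBY rising in each genotype, by 0.56 in h3.3kd, 0.65 in elf7-3 and 0.82 in Col.

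Genes that act on the antenna were counted in the same way. The shares of all genes that rose and fell in warmth were 26.1% and 19.7% in h3.3kd. They were 29.8% and 18.3% in elf7-3, and 32.9% and 22.1% in Col. Of 11 genes for antenna kinases, phosphatases, pigment enzymes and insertion factors, 7 rose and 3 fell in warm h3.3kd, 5 rose and 4 fell in warm elf7-3, and 5 rose and 4 fell in warm Col. CAO, which makes chlorophyll b, rose by 1.46 in h3.3kd, 1.65 in elf7-3 and 1.85 in Col, and STN7, the kinase of LHCII, by 0.77 in h3.3kd, 0.90 in elf7-3 and 0.86 in Col. Of 13 tested genes of a list of 15 regulators of antenna genes, 8 rose and 3 fell in warm h3.3kd, 7 rose and 3 fell in warm elf7-3, and 9 rose and 4 fell in warm Col. PIF5, a phytochrome-interacting factor, rose by 0.77 in h3.3kd, 1.76 in elf7-3 and 1.75 in Col, and its response in h3.3kd was below that in Col, with a difference of -0.98 ± 0.174 (limma, adjusted p = 8.89e-04). CGA1, a GATA factor that promotes greening, fell in each genotype, with log2 fold changes of -1.299 in h3.3kd, -0.79 in elf7-3 and -1.25 in Col. The morning clock genes CCA1 and LHY averaged 0.237 to 0.698 TPM (CCA1) and 0.390 to 1.12 TPM (LHY) over the groups and were not tested. Of the 4 nuclear NDH subunit genes, 2 rose and 2 fell in warm h3.3kd, 2 rose and 2 fell in warm elf7-3, and 1 rose and 2 fell in warm Col. NDHO rose most in h3.3kd, by 1.103, against 0.77 in elf7-3 and 0.58 in Col, whereas LHCA6 was not called in any of these.

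Likeness of pattern was measured as the root mean square difference of centred log2(TPM + 1) over the 18 libraries, which is 0 for identical patterns. Among the members, LHCB4.2 was closest to LHCB6 (0.409), LHCA3 to LHCB4.1 (0.148) and LHCA1 to LHCB5 (0.317), with LHCA4 nearly as close (0.324). LHCB4.3 had no close partner, its smallest difference being 0.614 to LHCB6. Outside the members, the closest genes to LHCB4.2 were PSAD2 (0.183), the expansin gene EXPA8 (0.262) and LHCB2.1 (0.280). For LHCB4.3 they were AT2G37900 (0.233), AT1G80130 (0.278) and AT2G43960 (0.322), and for LHCB6 they were CP5 (0.174), the thylakoid phosphate transporter gene PHT4;1 (0.176) and NPC2 (0.177). LHCA1 was closest to CYSB (0.121) and LHCA4 to the tubulin gene TUA5 (0.132), while LHCA2 was close to AT3G61480 (0.0908), the locus number next to its own. LHCA6 was closest to KINESIN-12B (0.0991). Members with little change over the groups, such as LHCB4.1 with HIP1 (0.0491), have small differences on this measure. The 18 libraries share their groups and scaling, and no test was made.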

How the data were processed

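The table held TPM for 27655 genes in 18 libraries, computed and deposited by the authors, and every library sums to 1000000. Per the submitters' processing notes fastp 0.20.1, HISAT2 2.1.10, HTSeq 0.11.2 and DESeq2 1.26.0 were used with build TAIR10. Strand setting and gene lengths are not given in the sources used here. The 20048 genes that reached 1 TPM in 3 or more libraries were fitted as log2(TPM + 1) in limma 3.58.1 (R 4.3.3), with 1 mean per group over all 18 libraries and a variance trend. Two-sided p-values were adjusted by Benjamini-Hochberg over all genes, and an adjusted p under 0.05 was called. A fold change on this scale understates that of low genes. Sums and ratios were compared by exact two-sided permutation tests (scipy 1.17.1). Gene models and sequences were read from TAIR10.1 with Biopython 1.88. The fit was tested on simulated data. Alternatives were a pseudocount of 0.1, median-of-ratios scaling, no filter, a minimum of 5 TPM, removal of organelle genes, library weights, a replicate block, a fit of only the groups compared, and each library left out. The 10 members were all described, other genes were named by largest called change within a list or by nearest pattern, and members and lists were chosen with earlier results of these data known.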

Additional observations from a re-analysis of the deposited data

Results flagged for a closer look

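Of 30 tests of a difference between genotypes in the response to warmth, 15 were called by limma with Benjamini-Hochberg adjustment over all genes, and each is given as the difference of log2 fold changes. For h3.3kd minus Col it was -0.71 for LHCB4.2, 1.94 for LHCB4.3 and -0.49 for LHCB6. In the same comparison it was -0.56 for LHCA2, -0.44 for LHCA3 and -0.60 for LHCA4. For elf7-3 minus Col it was -1.01 for LHCB4.2, -0.59 for LHCB5, -0.66 for LHCB6 and 0.38 for LHCA1. For h3.3kd minus elf7-3 it was 2.24 for LHCB4.3, -0.35 for LHCA1, -0.33 for LHCA2, -0.47 for LHCA3 and -0.45 for LHCA4. Of all 20048 genes, 1679 were called more positive and 2010 more negative in h3.3kd minus Col. The counts were 751 and 703 in elf7-3 minus Col, and 962 and 1406 in h3.3kd minus elf7-3. Because these counts differ, the 15 of 30 pooled over the comparisons has no single background. The comparisons with Col share the Col libraries, and root marker levels differed between the same groups, so that 8 of 14 root markers had a more negative response than in Col in h3.3kd and 8 of 14 in elf7-3. The part of root markers in the differences of the members was not tested.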

How the results depend on the processing

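The 120 log2 fold changes of members come from 12 comparisons that share groups. In these, the share of all genes called in 1 direction ran from 3.51% (more negative in elf7-3 minus Col) to 32.9% (higher in warm Col). Of the 120, 73 were called, and 59 of these stayed called in every alternative, 14 lost the call in at least 1 and 0 changed sign. Of the 47 not called, 11 were called in at least 1 alternative and 14 changed sign in at least 1. The number of members called at 21 °C in h3.3kd against elf7-3, which was 6, was 3 when only these groups were fitted and ran from 3 to 5 when libraries were left out. Median-of-ratios scaling moved the median of all genes by at most 0.0862. Under it the sign turned for LHCB4.3 (-0.0254) and LHCA6 (-0.0648) in warm elf7-3, LHCB4.1 in h3.3kd (0.0653) and elf7-3 (0.0066) against Col at 27 °C, LHCA3 in h3.3kd against elf7-3 at 21 °C (0.0174) and LHCB4.1 in h3.3kd against elf7-3 at 27 °C (0.0588). It also turned the minor LHCB sum of h3.3kd minus Col at 27 °C (429.5 TPM, or 51.8 TPM without organelle genes, against -28.7 TPM) and the LHCA sum of warm minus cool Col (-146.5 TPM against 203 TPM). Without organelle genes LHCA2 in warm h3.3kd was 0.003 and LHCB4.1 in h3.3kd against elf7-3 at 27 °C 0.003. With library weights LHCA2 in warm h3.3kd was 0.0081, LHCB6 in elf7-3 against Col at 21 °C -0.0341 and LHCB4.3 in h3.3kd against elf7-3 at 21 °C -0.0281. The cause was not tested.

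With single libraries left out, the following differences took either sign, none of them called in the full set. In warm h3.3kd LHCA2 ran from -0.0615 to 0.0228, and in warm elf7-3 LHCB4.3 ran from -0.0347 to 0.124 and LHCA6 from -0.0645 to 0.129. In elf7-3 against Col at 21 °C LHCB4.2 ran from -0.304 to 0.154, LHCB6 from -0.122 to 0.0886 and LHCA6 from -0.175 to 0.0178, and at 27 °C LHCB4.1 ran from -0.0448 to 0.0075. In h3.3kd against elf7-3 LHCA3 ran from -0.0726 to 0.0141 and LHCB4.3 from -0.0314 to 0.0837 at 21 °C, and LHCB4.1 from -0.0391 to 0.0135 at 27 °C. Among differences of responses, LHCA1 in h3.3kd minus Col ran from -0.012 to 0.0959, LHCA3 in elf7-3 minus Col from -0.0017 to 0.0553 and LHCA6 in h3.3kd minus elf7-3 from -0.0135 to 0.187. The minor LHCB sum ran from -232 to 183 TPM in h3.3kd minus Col at 27 °C and from -129 to 356 TPM in h3.3kd minus elf7-3 at 21 °C. The LHCA sum ran from -158.5 to 47.2 TPM in warm minus cool elf7-3 and from -108 to 194 TPM in h3.3kd minus elf7-3 at 21 °C. In elf7-3 against Col at 21 °C the log2 ratio of LHCB4.2 to LHCB4.1 ran from -0.321 to 0.0907 and that of LHCA6 to LHCA2 from -0.0261 to 0.113.

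Among 45 same-numbered pairs of libraries, 4 had a correlation of deviations over 0.1 (range -0.154 to 0.168). For h3.3kd and elf7-3 at 27 °C it was 0.168, 0.131 and 0.0967, and for Col and elf7-3 at 27 °C -0.103, -0.154 and 0.0235. Pairs with unlike numbers were not compared, so whether replicate numbers pair the libraries cannot be told from these values. With the replicate block LHCB4.3 in warm Col (limma adjusted p = 0.0530) and LHCA1 (0.0534) and LHCA2 (0.0635) in h3.3kd against elf7-3 at 21 °C lost their calls, and no other called member did. LHCB4.3 and LHCA6 had the fewest estimated reads per library, 40 to 318 for LHCB4.3 and 499 to 1105 for LHCA6.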
